A study of Homo sapiens with 48 samples.

Results

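The enzymes that carry glucose 6-phosphate to lactate were followed in K562 cells after imatinib, through the 10 genes GPI, PFKM, PFKP, ALDOA, TPI1, PGK1, ENO1, PKM, LDHA and LDHB. Every probe set annotated to 1 of these symbols alone was taken, which gave 20 of the 22215 probe sets tested, and they were ordered along the pathway. No filter on dim values was used, so all 20 entered every test, and shares over all probe sets include dim ones. The brightest probe sets of the 10 genes lay between percentiles 88.3 and 99.6 of mean level. In the samples treated with imatinib, limma called 18 of the 20 probe sets lower than in mock samples (25.8% of all probe sets) and 0 higher (39.3%). On these values as deposited, 0 were also higher at an unadjusted p under 0.05. After quantile normalization within sets, 2 were called higher. The pyruvate kinase gene PKM fell by 2.33 on the log2 scale, followed by ENO1 (-0.98), PGK1 (-0.93) and LDHA (-0.62), while the phosphofructokinase genes PFKM and PFKP did not pass the test.

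K562 is a human chronic myeloid leukaemia line, long established in culture, whose growth depends on the BCR-ABL1 fusion kinase that imatinib inhibits. Total RNA was measured on Affymetrix arrays in 48 samples, with 3 mock and 3 imatinib samples in each of 8 sets lettered A to H. Imatinib was given at 1 micromolar for 24 hours, and about 8 micrograms of RNA went into each labelling in both groups. RNA of mock samples came from Trizol extraction plus a column kit and carried the full amount of spike controls, and RNA of imatinib samples came from the column kit alone with a reduced amount, so treatment and isolation cannot be told apart in any comparison here. What a letter marks is not stated, nor whether samples came from separate cultures, so the p-values measure a spread between samples that may be technical. The keywords of the imatinib samples name mock treatment, and the titles and descriptions were followed.

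Glycolysis splits glucose into pyruvate and yields ATP without oxygen, and lactate dehydrogenase then turns pyruvate into lactate and restores the NAD+ that the pathway uses. Isomerase, phosphofructokinase and aldolase handle the hexose phosphates, triose phosphate isomerase interconverts the products of aldolase, and phosphoglycerate kinase, enolase and pyruvate kinase belong to the payoff stage in which ATP is made. Leukaemia cells with an active BCR-ABL1 kinase are known for high glucose use.

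The cells were checked against marker lists. Of the K562 list, 8 of 8 measured genes had a mean level no lower than the median probe set, against 3 of 5 for T cells, 2 of 4 for B cells, 0 of 6 for monocytes and granulocytes and 5 of 6 for fibroblasts and epithelium. In the limma fit over all sets, in which 27.1% of the 11963 genes were lower and 41.6% higher, all 8 measured K562 markers were higher with imatinib, with a median change of 0.62. They were the embryonic globins HBZ (3.13) and HBE1 (1.04), LMO2 (1.17), EPOR (0.89), GATA1 (0.35), ABL1 (0.32), TFRC (0.21) and BCR (0.14). Of the T cell list, CD3D changed by -1.73 and CD3E by 0.17, and of the B cell list CD22, CD79B and CD79A were higher, by 0.19, 0.13 and 0.12. Of the monocyte and granulocyte list, MPO (0.12) and ITGAM (0.093) were higher and LYZ (-0.44) lower, and of the fibroblast and epithelial list, DCN (0.19) and COL1A1 (0.18) were higher and COL1A2 (-0.14) lower. The mean level of the K562 list in single samples ran from 9.39 to 11.09 in mock and from 10.34 to 11.98 in imatinib samples. The fibroblast and epithelial list ran from 6.27 to 8.08 in mock and from 6.28 to 8.12 in imatinib samples. The T cell list ran from 6.16 to 7.73 and from 5.92 to 7.50, the B cell list from 5.85 to 7.11 and from 5.78 to 7.32, and the monocyte and granulocyte list from 4.70 to 6.37 and from 4.65 to 6.39, in the same order. The part of these shifts in the glycolytic changes was not tested.

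For 4 genes whose changes are compared most closely below, the 250 bases before a transcription start are shown, from RefSeq on GRCh38.p14. The windows shown lie outside the annotated span of their own gene, and overlap with other genes was not checked. LDHA and LDHB encode the pair of subunits that fell by unequal amounts, and PGK1 and ENO1 were the largest falls after PKM. The LDHA window is chr11:18394313-18394562 on the plus strand, that of PGK1 chrX:78103998-78104247 on the plus strand, that of ENO1 chr1:8878687-8878936 on the minus strand and that of LDHB chr12:21657843-21658092 on the minus strand. Each is written 5′ to 3′ on the strand of its gene. Capitals mark CACGTG, the E-box, and ACGTG, a form of the core of the hypoxia response element, read on both strands. The other form of that core, GCGTG, was not searched or marked.
LDHA: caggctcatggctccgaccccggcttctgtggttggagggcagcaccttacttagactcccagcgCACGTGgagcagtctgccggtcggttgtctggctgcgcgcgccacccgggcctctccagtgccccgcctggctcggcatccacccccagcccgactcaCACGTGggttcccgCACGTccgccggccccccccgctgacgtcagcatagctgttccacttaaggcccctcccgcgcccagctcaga
PGK1: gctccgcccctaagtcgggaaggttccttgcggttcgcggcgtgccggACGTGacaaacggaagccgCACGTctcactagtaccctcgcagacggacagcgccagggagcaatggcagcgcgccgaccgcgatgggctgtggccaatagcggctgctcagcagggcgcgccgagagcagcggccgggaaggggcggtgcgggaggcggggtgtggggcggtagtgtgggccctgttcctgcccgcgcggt
ENO1: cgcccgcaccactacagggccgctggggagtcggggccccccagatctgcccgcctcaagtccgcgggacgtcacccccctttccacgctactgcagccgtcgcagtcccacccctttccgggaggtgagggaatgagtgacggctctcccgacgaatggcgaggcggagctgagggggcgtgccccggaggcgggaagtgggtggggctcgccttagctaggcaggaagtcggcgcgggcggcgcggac
LDHB: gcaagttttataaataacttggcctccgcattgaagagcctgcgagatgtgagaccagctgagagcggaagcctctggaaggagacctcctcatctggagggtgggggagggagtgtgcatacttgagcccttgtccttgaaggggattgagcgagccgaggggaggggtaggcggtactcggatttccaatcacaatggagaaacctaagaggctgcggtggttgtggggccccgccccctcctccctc

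The LDHA window shown held 2 copies of CACGTG, at -185 to -180 and at -87 to -82 from the start. It also had a further ACGTG match at -73 to -69. The other LDHA window, chr11:18396101-18396350, lies within the annotated span of the gene and held neither motif. PGK1 held no CACGTG and had ACGTG matches at -202 to -198 and at -183 to -179. Neither motif was in the windows of ENO1 or LDHB. CACGTG contains ACGTG, is the same on both strands, and lay in 6.34% of the 35116 windows of this length in the table; ACGTG lay in 18.5%. Of the 23 windows of the 10 glycolytic genes, 2 held CACGTG and 9 held ACGTG. Counted by gene, which favours genes with several windows, 2 of the 10 glycolytic genes had CACGTG, LDHA and ALDOA, against 7.73% of 27305 genes, and 7 of the 10 had ACGTG, against 21.7%. The genes with ACGTG included PFKM and PFKP, which were not called, and the PKM window held neither motif. These matches describe letters in the windows only.

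Over all sets, 24 imatinib samples were compared with 24 mock samples in limma with the set as a factor. The adjusted p-values of the 18 lower probe sets in that limma fit ran from 1.04e-39 to 2.04e-05. By the brightest probe set of each gene, 8 of 10 genes were lower and 0 higher, against 27.1% and 41.6% of 11963 genes. The median change of the 10 genes was -0.50, and that of all genes was 0.05. Falls of at least 2-fold were seen for 3 of the 20 probe sets and for 476 of all 22215. In these bulk samples, less RNA per cell and fewer cells of a kind cannot be told apart. Of all called probe sets, 39.6% were lower as deposited, 51.7% with each array centred on its median and 43.8% with quantiles made equal within a set. The median change of the 10 genes was -0.54 with centred arrays and -0.48 with equal quantiles.

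**Figure D1:**
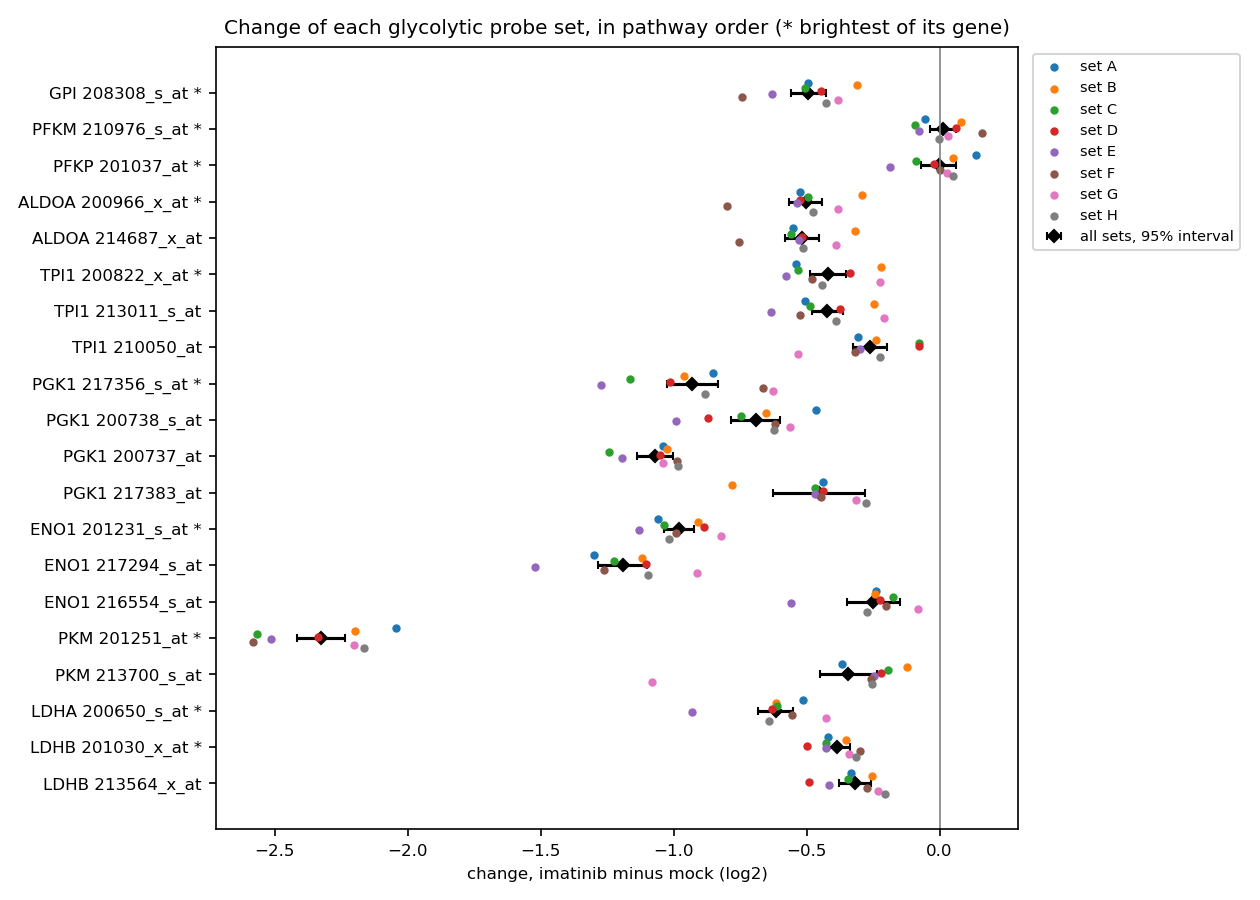
Change of each of the 20 probe sets on the log2 scale, imatinib minus mock, in pathway order from GPI to LDHB. Coloured points are the 8 sets and black diamonds the fit over all sets with its 95% interval; the points of PKM 201251_at lie between -2.58 and -2.04, and those of PFKM and PFKP lie on both sides of 0.

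GPI, which turns glucose 6-phosphate into fructose 6-phosphate, was read by 208308_s_at. In set F its mock samples were at 11.30, 11.62 and 11.47 and its imatinib samples at 10.52, 10.80 and 10.83. In set B they were at 12.22, 12.51 and 12.63 for mock and at 12.13, 12.19 and 12.11 for imatinib. The groups did not overlap in either set, although in set B the lowest mock sample lay only 0.034 above the highest imatinib sample. Over all sets GPI fell by 0.49 (SE 0.033, 24 samples per treatment; limma adjusted p = 4.79e-18), a 1.41-fold difference, with a range over the sets from -0.74 in F to -0.31 in B.

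Phosphofructokinase commits the sugar to glycolysis by adding a second phosphate, and PFKM and PFKP encode its muscle and platelet subunits. PFKM, by 210976_s_at, was at 8.55, 8.53 and 8.67 in mock and 8.70, 8.72 and 8.80 in imatinib samples of set F. In set C it was at 8.45, 8.39 and 8.43 in mock and 8.43, 8.37 and 8.19 in imatinib samples. All imatinib samples were above mock in set F, and the groups overlapped in set C. Over all sets the change was 0.013 (95% interval -0.035 to 0.062; limma adjusted p = 0.634), with 4 of 8 sets below 0; it was -0.024 (adjusted p = 0.422) with arrays centred on their median and 0.11 (adjusted p = 0.000368) after quantile normalization. Without set F the change was -0.0073.

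PFKP, by 201037_at, was at 8.59, 8.63 and 8.64 in mock and 8.72, 8.82 and 8.74 in imatinib samples of set A. In set E it was at 8.64, 8.63 and 8.56 in mock and 8.58, 8.07 and 8.62 in imatinib samples. The second imatinib sample of set E lay apart from the others of its group. The change over all sets was -0.0031 (95% interval -0.068 to 0.062; limma adjusted p = 0.937), with 3 of 8 sets below 0; it was -0.041 (adjusted p = 0.350) with centred arrays and 0.12 (adjusted p = 7.43e-05) after quantile normalization. The direction of both genes therefore depended on the scaling. No set fitted alone called either gene. The liver-type subunit PFKL changed by 0.028 (limma adjusted p = 0.450). In exact sign-flip permutation tests over the 8 sets, two-sided and adjusted over 6 paralog pairs, the PFKP minus PFKM difference was -0.017 (SD over sets 0.11, range -0.16 to 0.19; adjusted p = 0.844). The PFKP minus PFKL difference was -0.031 (SD 0.14; exact test adjusted p = 0.797), and the PFKM minus PFKL difference was -0.014 (SD 0.18; exact test adjusted p = 0.883).

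ALDOA, the aldolase that splits fructose 1,6-bisphosphate, had a pair of probe sets. For 200966_x_at, set F had mock samples at 12.88, 13.14 and 13.09 and imatinib samples at 12.10, 12.28 and 12.33. Set B had mock samples at 13.56, 13.79 and 13.93 and imatinib samples at 13.44, 13.51 and 13.45. The groups stood apart in both, by 0.55 in F and by 0.050 in B. The change over all sets was -0.50 (SE 0.031; limma adjusted p = 2.02e-19), a 1.42-fold difference. The other probe set, 214687_x_at, changed by -0.52, and the difference between them was within the spread over sets (0.012, SD 0.033; exact sign-flip permutation test adjusted over 10 pairs, p = 0.339). ALDOA fell more than ALDOC, the brain-type aldolase, which changed by -0.39: the difference was -0.12 (SD 0.13, below 0 in 7 of 8 sets; exact test adjusted p = 0.0469).

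TPI1, which interconverts the pair of triose phosphates, had 3 probe sets. The brightest, 200822_x_at, was at 11.04, 10.97 and 10.88 in mock and 10.48, 10.35 and 10.31 in imatinib samples of set E, where the fall was largest. In set B it was at 12.19, 12.35 and 12.41 in mock and 12.15, 12.07 and 12.07 in imatinib samples. Both sets had all imatinib values below all mock values. The change over all sets was -0.42 (SE 0.034; limma adjusted p = 1.96e-15), and it was also -0.42 for 213011_s_at, with a difference between the pair of 0.0019 (SD 0.044; exact test adjusted p = 0.898) that was -0.0041 after quantile normalization. The dim probe set 210050_at changed by -0.26 (SE 0.032) and was called lower in 4 of 8 sets, although its groups did not overlap in any set.

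PGK1 makes the first ATP of the payoff stage and had 4 probe sets. In set E, 217356_s_at was at 11.00, 10.85 and 10.87 in mock and 9.83, 9.50 and 9.58 in imatinib samples, a 2.41-fold difference. In set G it was at 12.63, 12.71 and 12.48 in mock and 12.01, 11.97 and 11.95 in imatinib samples, a 1.54-fold difference. The gap between lowest mock and highest imatinib sample was 1.02 in E and 0.46 in G, so the groups were apart in both. Over all sets the change was -0.93 (SE 0.048; limma adjusted p = 1.51e-22), from 11.95 to 11.02, a 1.91-fold difference. Sets C and D lay near set E, at -1.17 and -1.01, and sets F and H nearer to set G, at -0.66 and -0.88. In set F the mock samples were at 11.96, 11.93 and 11.78 and the imatinib samples at 11.35, 10.95 and 11.37, with the second imatinib sample below the other two.

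The other PGK1 probe sets changed by -1.07 (200737_at), -0.69 (200738_s_at) and -0.45 (217383_at), all lower at limma adjusted p-values of 1.08e-05 or less. For 200737_at, set C had mock samples at 10.81, 10.81 and 10.86 and imatinib samples at 9.66, 9.58 and 9.52. Set H, with the smallest fall, had mock samples at 10.61, 10.60 and 10.56 and imatinib samples at 9.34, 9.87 and 9.61. This probe set was the most even of the 4, from -1.24 to -0.98 over the sets. The brightest probe set fell more than 200738_s_at by 0.24 (SD 0.14) and more than 217383_at by 0.48 (SD 0.23), each in 8 of 8 sets (exact test adjusted p = 0.0130 for both). It fell less than 200737_at by 0.14 (SD 0.16; exact test adjusted p = 0.0446), a call lost after quantile normalization, where the difference was 0.096 (adjusted p = 0.246).

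ENO1, the enolase that forms phosphoenolpyruvate, had 3 probe sets. In set E, 201231_s_at was at 11.71, 11.70 and 11.68 in mock and 10.65, 10.48 and 10.58 in imatinib samples. In set G it was at 12.98, 12.94 and 12.99 in mock and 12.12, 12.09 and 12.22 in imatinib samples. Mock samples were within 0.05 of each other in both sets, and the groups were apart by 1.04 and 0.72. The change over all sets was -0.98 (SE 0.028; limma adjusted p = 1.22e-32), from 12.28 to 11.30, a 1.97-fold difference, and the sets ranged from -1.13 to -0.82.

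A second ENO1 probe set, 217294_s_at, was at 10.75, 10.83 and 10.73 in mock and 9.55, 8.93 and 9.27 in imatinib samples of set E, and changed by -1.19 over all sets. The third, 216554_s_at, changed by -0.25 (SE 0.049; limma adjusted p = 2.04e-05) and was called lower in 3 of 8 sets. In set G it was at 8.01, 7.64 and 8.03 in mock and 7.75, 7.92 and 7.76 in imatinib samples, which overlapped. The brightest probe set fell less than 217294_s_at by 0.21 (SD 0.10) and more than 216554_s_at by 0.73 (SD 0.095), each with exact test adjusted p = 0.0130. ENO2, the neuronal enolase, changed by -0.18, and ENO1 fell more in 8 of 8 sets (difference -0.80, SD 0.15; exact test adjusted p = 0.0234).

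PKM, the pyruvate kinase of most proliferating cells, showed the largest fall of the 10 genes. For 201251_at, set A had mock samples at 9.96, 10.24 and 10.53 and imatinib samples at 8.51, 8.10 and 7.98. Set B had mock samples at 11.70, 11.87 and 11.87 and imatinib samples at 9.67, 9.60 and 9.58. Set C had mock samples at 11.51, 11.59 and 11.53 and imatinib samples at 9.09, 8.93 and 8.91. In these 3 sets the lowest mock sample was above the highest imatinib sample by 1.45, 2.03 and 2.42. Set D had mock samples at 11.70, 11.74 and 11.68 and imatinib samples at 9.44, 9.38 and 9.28. Set E had mock samples at 10.29, 10.31 and 10.31 and imatinib samples at 7.97, 7.68 and 7.73. Set F had mock samples at 10.64, 10.58 and 10.75 and imatinib samples at 8.29, 7.87 and 8.06. The gaps here were 2.24, 2.32 and 2.29. Set G had mock samples at 12.15, 12.22 and 12.28 and imatinib samples at 9.99, 9.94 and 10.11. Set H had mock samples at 11.46, 11.36 and 11.51 and imatinib samples at 9.21, 9.38 and 9.26. The treatments were apart in all 8 sets, and the smallest gap was that of set A, whose mock samples were the most spread (SD 0.28, n = 3).

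Over all sets PKM fell by 2.33 (SE 0.045; limma adjusted p = 1.04e-39), from 11.24 to 8.91, a 5.01-fold difference, with set values from -2.58 in F to -2.04 in A. Among the other probe sets, only 0.131% had a lower change. The other PKM probe set, 213700_s_at, was dim and changed by -0.34 (SE 0.053; limma adjusted p = 2.33e-07). In set G it was at 7.26, 7.33 and 7.04 in mock and 6.15, 6.27 and 5.97 in imatinib samples, and in set B at 6.87, 6.80 and 6.86 in mock and 6.68, 6.72 and 6.77 in imatinib samples. The other 6 sets lay between -0.37 and -0.19, so set G stood apart. It was called lower in 3 of 8 sets. The 2 probe sets differed by -1.98 (SD 0.42) in the same direction in 8 of 8 sets (exact test adjusted p = 0.0130). Which isoform or end of the transcript each reads was not analysed here.

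**Figure D2:**
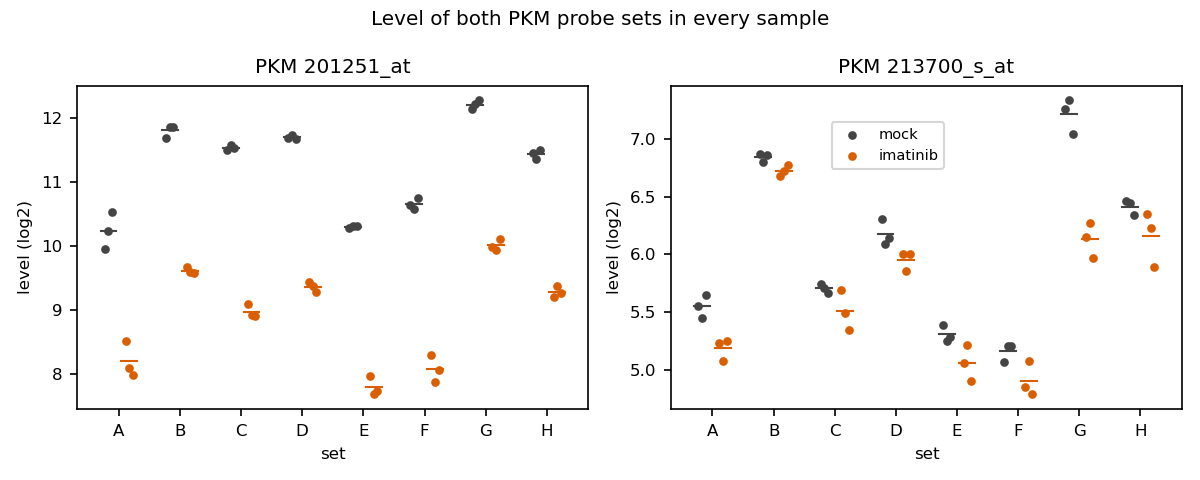
Level (log2) of both PKM probe sets in all 48 samples, with the sets A to H on the horizontal axis; points are samples and lines are means of 3. For 201251_at the treatments are apart in every set, and for 213700_s_at set G shows the widest separation, with a change of -1.08.

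The lactate dehydrogenase genes encode the M subunit (LDHA) and the H subunit (LDHB) of the tetramer that converts pyruvate and lactate. LDHA, by 200650_s_at, was at 12.41, 12.29 and 12.36 in mock and 11.50, 11.33 and 11.44 in imatinib samples of set E. In set G it was at 13.58, 13.44 and 13.41 in mock and 13.08, 13.09 and 12.98 in imatinib samples. The groups were apart by 0.79 and 0.32. The change over all sets was -0.62 (SE 0.033; limma adjusted p = 7.57e-22), from 12.85 to 12.24, a 1.53-fold difference.

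LDHB, by 201030_x_at, was at 12.54, 12.50 and 12.49 in mock and 12.03, 11.99 and 12.02 in imatinib samples of set D. In set F it was at 12.28, 11.95 and 12.11 in mock and 11.94, 11.64 and 11.85 in imatinib samples, a difference that was not called in that set alone (limma adjusted p = 0.131). The change over all sets was -0.39 (SE 0.024; limma adjusted p = 1.84e-19), a 1.31-fold difference, and 213564_x_at changed by -0.32. The pair of LDHB probe sets differed by -0.067 (SD 0.043) in 8 of 8 sets (exact test adjusted p = 0.0130). 

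Set beside each other, LDHA changed by -0.51 and LDHB by -0.42 in set A. In set E, LDHA changed by -0.93 and LDHB by -0.43, the widest difference. The LDHA change was -0.61 in both B and C, -0.63 in D and -0.64 in H, where LDHB changed by -0.35, -0.43, -0.50 and -0.31. It was -0.56 in F and -0.43 in G, where LDHB changed by -0.30 and -0.34, and set G held the narrowest difference. LDHA fell more than LDHB in 8 of 8 sets, by a mean of 0.23 (SD 0.14, range over the sets -0.50 to -0.088). The exact two-sided p was 0.00781, the smallest that 8 sets can give, and 0.0234 adjusted over 6 paralog pairs.

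**Figure D3:**
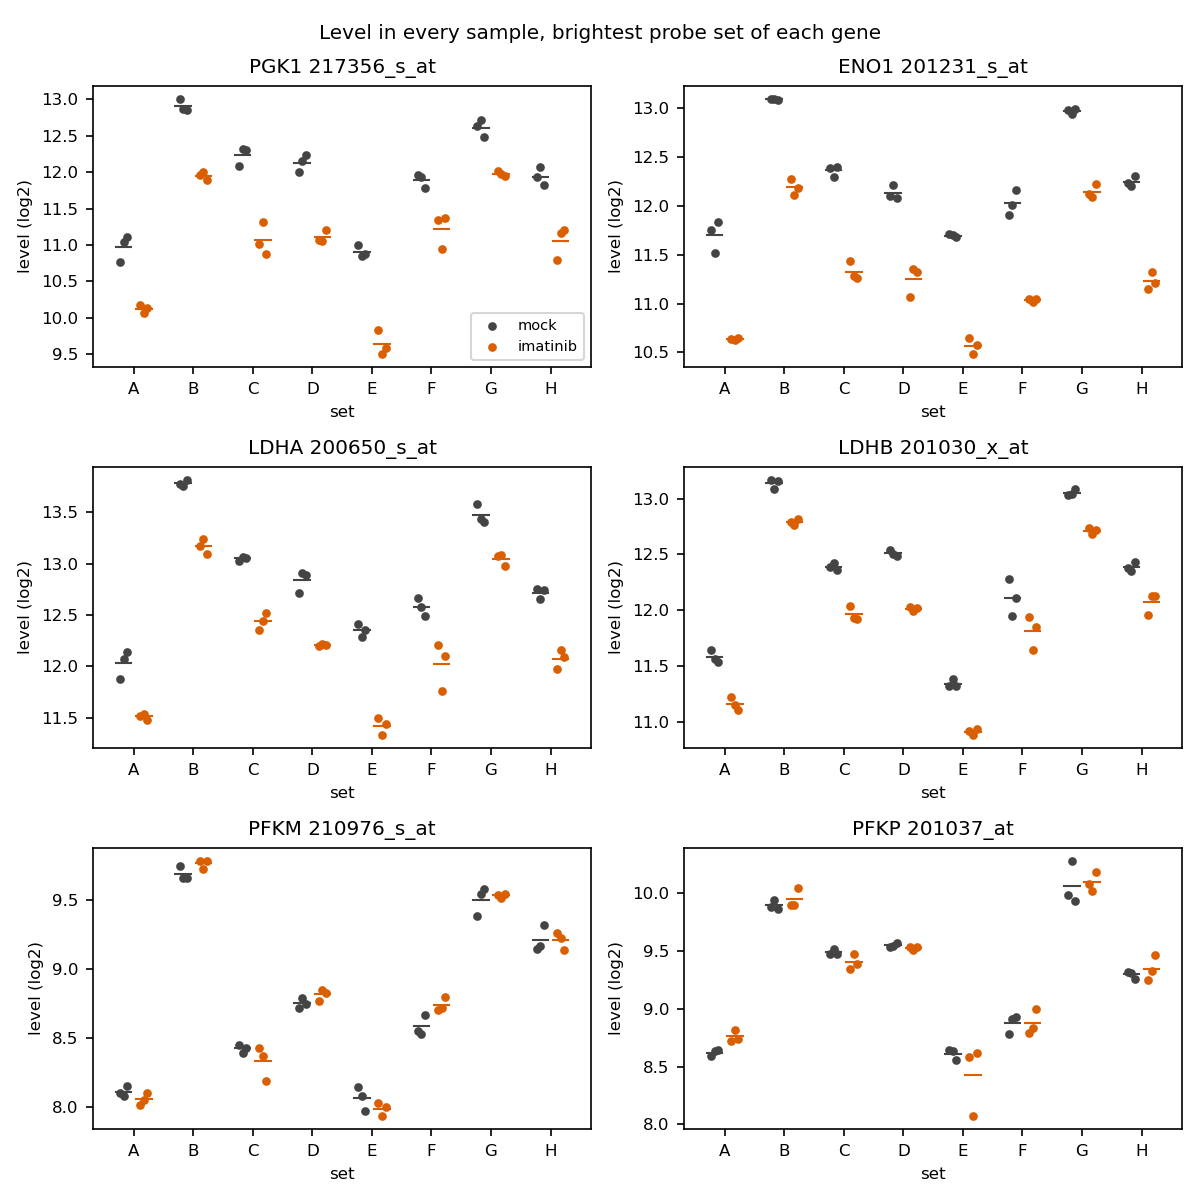
Level (log2) of the brightest probe set of PGK1, ENO1, LDHA, LDHB, PFKM and PFKP in all 48 samples, with sets A to H on the horizontal axis; points are samples and lines are means of 3. Imatinib samples of PGK1, ENO1, LDHA and LDHB lie below mock in all 8 sets, and those of PFKM and PFKP overlap mock or lie above it.

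By size of change of the brightest probe set, the order ran PKM, ENO1, PGK1, LDHA, ALDOA, GPI, TPI1, LDHB, PFKP and PFKM. Other probe sets would give another order: PKM 213700_s_at changed by -0.34, ENO1 216554_s_at by -0.25 and PGK1 200737_at by -1.07. The steps from PKM to ENO1 (-1.35, SD over sets 0.20), from PGK1 to LDHA (-0.31, SD 0.13) and from LDHB to PFKP (-0.38, SD 0.098) had the same sign in 8 of 8 sets. ENO1 was below PGK1 in 4 of 8 sets and ALDOA below GPI in 4 of 8, so these neighbours did not differ beyond their spread. LDHA was below ALDOA in 6 of 8 sets, and GPI below TPI1, TPI1 below LDHB and PFKP below PFKM in 5 of 8 each.

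The same comparison was made within single sets of 3 mock and 3 imatinib samples. Set A called 17 of the 20 lower (14.7% of all probe sets were lower) and 0 higher (13.6% were higher). Set B called 17 lower (19.9%) and 0 higher (27.8%), set C 15 lower (20.1%) and 0 higher (18.9%), and set D 17 lower (18%) and 0 higher (20.9%). Set E called 16 lower (12.1%) and 0 higher (7.24%), and set F 12 lower (9.47%) and 0 higher (7%). Set G called 14 lower (16%) and 0 higher (11.5%), and set H 13 lower (11.8%) and 0 higher (12.3%). At an unadjusted limma p under 0.05 the count of higher probe sets was also 0 in every set, on the values as deposited. After quantile normalization within sets, 2 were called higher in set B and 2 in set D. The median change of the 10 genes ran from -0.61 in F to -0.33 in B. In all 8 sets alone, 9 of the 20 probe sets were called lower (6.57% of all probe sets), and 14 of the 20 had every imatinib value below every mock value (8.6%). The largest fall came in set E for 4 of the 8 lower genes and in set F for 3, and the smallest in set B for 3 and in set G for 3.

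A limma F test of the set-by-treatment terms asked whether sets differed in the size of the change, and 6 of the 20 probe sets passed (7.2% of all probe sets). They were ALDOA 200966_x_at (adjusted p = 0.0389), TPI1 213011_s_at (0.0184) and 210050_at (0.0451), PGK1 217356_s_at (0.0357), and PKM 201251_at (0.0494) and 213700_s_at (0.000104). The PKM 213700_s_at call rested on set G: without that set its adjusted p was 0.802. Without set G, 0 of the 20 passed in limma (5.21% of all probe sets), with a lowest adjusted p of 0.0636 and 8 at an unadjusted p under 0.05. Leaving out any other set gave between 2 and 6 calls. The share over all probe sets then ran from 3.18% without set C to 7.86% without set E. With arrays weighted by set the count was 3 (7.07% of all probe sets). It was 1 with arrays centred on their median and 3 after quantile normalization, for which the shares over all probe sets are not given here. Leaving out 1 sample gave between 2 and 7 calls; the 14 samples that took it to 3 or fewer were all of set B but mock 3, mock 2, mock 3 and imatinib 3 of set C, imatinib 3 of set E, mock 3 and imatinib 3 of set F, and the 3 imatinib samples of set G.

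Since RNA isolation ran with treatment, the control probe sets of GAPDH and ACTB, which read the 3′ end, middle and 5′ end of the transcript, were set beside the probe set differences. The 3′ minus 5′ difference in change was 0.019 for GAPDH (SD over sets 0.078; exact sign-flip permutation test adjusted p = 0.531) and 0.15 for ACTB (SD 0.19; adjusted p = 0.0938), and for ACTB 0.20 (adjusted p = 0.0313) after quantile normalization. The part of transcript ends in the differences between probe sets of PGK1, ENO1 and PKM was not tested. Of the 20 probe sets, 5 carry the suffix that marks possible cross-hybridisation (x) and 10 the suffix for shared transcripts (s), and the other 5 gave 4 lower and 0 higher. The RefSeq gene table lists between 2 and 6 pseudogenes each for ALDOA, TPI1, PGK1, ENO1, PKM, LDHA and LDHB, whose signal the array may share.

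The rest of the pathway was read from a list of 61 other genes of glycolysis, pyruvate use and their control, of which 55 were measured, and 23 were lower, 16 higher and 16 not called in the fit over all sets, beside the 27.1% lower and 41.6% higher over all genes. Their median change was -0.01. At the steps between the described enzymes, GAPDH, which oxidises glyceraldehyde 3-phosphate, changed by -0.18 (SE 0.020; limma adjusted p = 4.23e-11), and PGAM1, the mutase before enolase, by -0.49 (SE 0.023; limma adjusted p = 5.58e-24). Of the 12 measured isoenzymes and remaining steps, 6 were lower (27.1% over all genes) and 3 higher (41.6%). PKLR, the pyruvate kinase of liver and red cells, rose by 2.52 (SE 0.040; limma adjusted p = 3.43e-43), from 7.21 to 9.74, in 8 of 8 sets without overlap, and its other probe sets by 2.51 and 2.50. BPGM, which makes the red cell metabolite 2,3-bisphosphoglycerate, rose by 1.55 (SE 0.075; limma adjusted p = 1.25e-23). Both rose while the K562 markers, among them the globins HBZ and HBE1, were also higher, and their relation was not tested.

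Upstream, 2 of 9 measured genes of uptake and the hexokinase step were lower and 3 higher, shares near the 27.1% and 41.6% over all genes. The glucose transporter SLC2A3 fell by 3.84 (SE 0.069) and hexokinase HK2 fell by 1.76 (SE 0.044), while the transporter SLC2A1 rose by 1.27 (SE 0.038), with limma adjusted p-values of 6.10e-41, 2.85e-35 and 6.59e-32. A second HK2 probe set changed by -0.27 and a second SLC2A1 probe set by 0.38. Another hexokinase, HK1, rose by 0.25 (SE 0.021, limma adjusted p = 1.31e-14), without overlap in 8 of 8 sets. Of the 5 enzymes of fructose 2,6-bisphosphate, which activates phosphofructokinase, 3 were higher, led by PFKFB4 at 0.27 and PFKFB1 at 0.24, and 2 lower, PFKFB3 at -0.22 and TIGAR at -0.20.

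**Figure D4:**
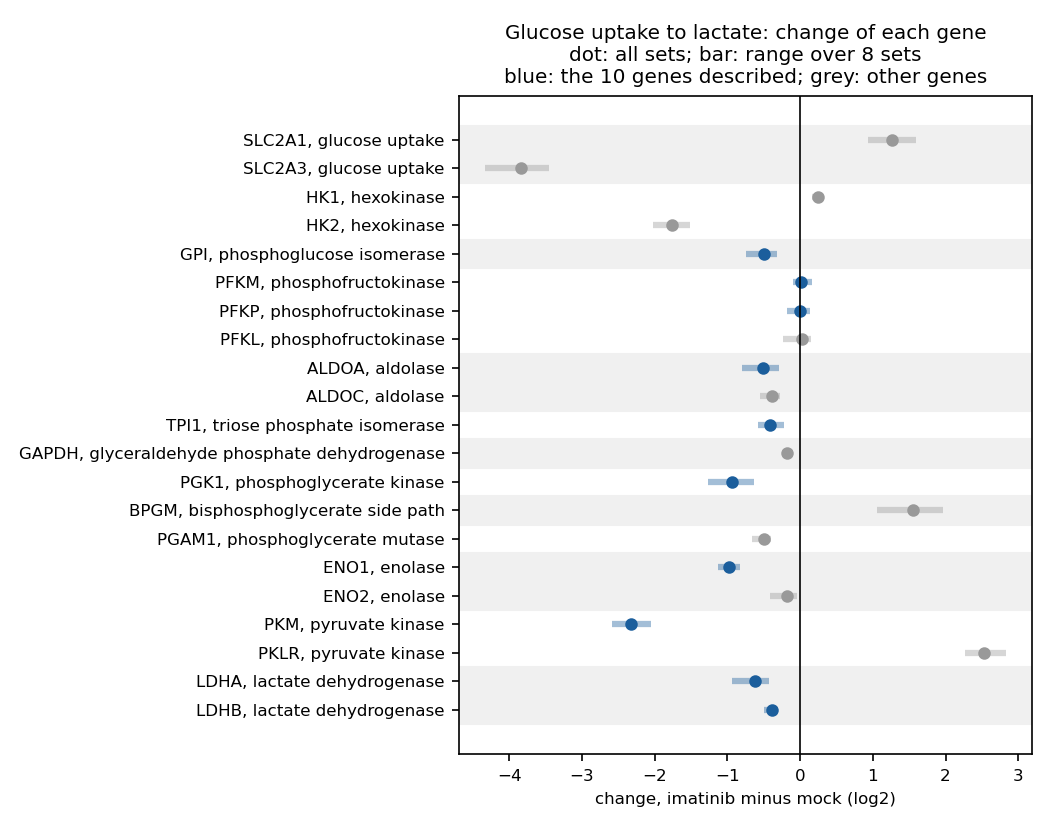
Change (log2, imatinib minus mock) of the genes from glucose uptake to lactate, by the brightest probe set; dots are the fit over all sets and bars the range over the 8 sets. The 10 described genes are blue, with PKM at -2.33, and other genes grey, with SLC2A3 at -3.84 at the lower end and PKLR at 2.52 at the upper end.

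Of 6 regulators of glycolytic transcription and of PKM splicing, 4 were lower (27.1% over all genes) and 1 higher (41.6%). The transcription factor MYC fell by 1.36 (SE 0.038; limma adjusted p = 5.09e-33), HNRNPA2B1 fell by 0.998 (SE 0.052; limma adjusted p = 3.27e-22) and SRSF3 fell by 0.72 (SE 0.034; limma adjusted p = 6.98e-24). Both of the latter encode RNA-binding splicing factors. PTBP1, another splicing factor that acts on PKM, fell by 0.44. HNRNPA1 rose by 0.50 by its brightest probe set, and its other probe sets were not called. HIF1A, the hypoxia-inducible factor, changed by 0.099 (limma adjusted p = 0.101).

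The genes most like PKM, ENO1 and PGK1 over the 48 samples, each set centred on its own mean, were ranked by Pearson r among 11953 other genes. Nearest to PKM were TMEM158 (r = 0.994), PDE4DIP (0.993) and HHEX (0.992), and 945 genes had r above 0.9. ENO1 was nearest to VIM (0.989), DDIT4 (0.986) and KRT18 (0.986), with 813 genes above 0.9, and PGK1 to ACLY (0.984), YES1 (0.983) and LAPTM4B (0.982), with 895. All 9 of these genes fell with imatinib, from -3.68 for HHEX to -1.07 for ACLY. The r values are a description: all were computed over the same 48 samples, which hold both treatments.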

How the data were processed

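The table deposited by the authors gives each probe set a level on each array, between 2.41 and 14.9, a range from which the log2 scale was read. How background, probe summary and normalization were handled is not given in the sources used here. Tests covered 22215 of 22283 rows, the other 68 being array controls. Names came from the platform annotation, updated through the RefSeq gene table: 19065 probe sets had 1 symbol, 1043 several and 2107 none, and 19053 of those with 1 symbol matched. A gene was represented by its brightest probe set.

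Two-sided limma fits (version 3.58.1, R 4.3.3; lmFit, eBayes, Benjamini-Hochberg over all probe sets, threshold 0.05) gave the changes, with the set as a factor, in each set alone, and with set-by-treatment terms. Probe set pairs, paralogs and transcript ends were compared by exact sign-flip permutation over the 8 sets. The fits were tested on simulated data. Centring, quantile normalization, a filter on dim probe sets, a trended robust prior, a replicate block, suffix limits, the mean over probe sets and left-out samples and sets were tried.

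Named were all 10 genes, GAPDH, PGAM1, PFKL, HK2 and SLC2A3, the 3 largest changes past the threshold in each list of other pathway genes, the called markers, and the 3 genes most like each of PKM, ENO1 and PGK1. ALDOC and ENO2 are in the paralog tests. HK1, TIGAR, PTBP1, HNRNPA1 and HIF1A were chosen after their values were seen. The members and lists were chosen with earlier results of these data known. No signal-to-background values were used, and the number of arrays limits the precision. Figures were drawn with matplotlib 3.10.9.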

Additional observations from a re-analysis of the deposited data

Results flagged for a closer look

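For 6 probe sets the size of the fall differed between sets by the limma F test of set-by-treatment terms. ALDOA 200966_x_at (adjusted p = 0.0389) changed by -0.80 in set F and by -0.29 in set B. TPI1 213011_s_at (adjusted p = 0.0184) changed by -0.63 in set E and by -0.21 in set G, while TPI1 210050_at (adjusted p = 0.0451) changed by -0.53 in set G and by -0.076 in set D. PGK1 217356_s_at (adjusted p = 0.0357) changed by -1.27 in set E and by -0.63 in set G. PKM 201251_at (adjusted p = 0.0494) changed by -2.58 in set F and by -2.04 in set A. PKM 213700_s_at (adjusted p = 0.000104) changed by -1.08 in set G and by -0.12 in set B, and its limma adjusted p was 0.802 without set G. All 6 kept a change below 0 in each of the 8 sets.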

How the results depend on the processing

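Of 622 alternative values of the main comparisons 578 kept their direction and their side of the threshold, and of 1218 alternative values of single probe sets 1204 did; the cause of the others was not tested. Quantile normalization within sets gave 2 probe sets higher over all sets, 2 in set B and 2 in set D, PFKP at 0.12, a TPI1 200822_x_at minus 213011_s_at difference of -0.0041, PGK1 217356_s_at minus 200737_at at 0.096, PFKP minus PFKM at 0.013, ACTB ends at 0.20 and 3 calls in the test between sets. Centring arrays gave PFKM at -0.024 and 1 call between sets. Probe sets without an x or s suffix number 5, of which 4 were lower. The mean over all probe sets of a gene gave PFKM minus PFKL at 0.0026. Array weights by set gave 3 calls (7.07% of all probe sets). These weights were chosen after seeing the data, as was leaving out each set in the test between sets. With 1 sample or set left out, calls between sets ran from 0 to 7, PFKP from -0.023 to 0.023 and PFKM from -0.0073 to 0.029. Without replicate 1, 2 or 3 of every group, the TPI1 200822_x_at minus 213011_s_at difference ran from -0.021 to 0.045, PGK1 217356_s_at minus 200737_at from 0.11 to 0.19, LDHB 201030_x_at minus 213564_x_at from -0.075 to -0.055, ALDOA 200966_x_at minus 214687_x_at from -0.031 to 0.041, ALDOA minus ALDOC from -0.14 to -0.072, PFKP minus PFKM from -0.079 to 0.036, PFKP minus PFKL from -0.099 to 0.013 and ACTB ends from 0.11 to 0.19. With a replicate block, 18 probe sets were lower and 0 higher, the median change was -0.50, and no call over all sets changed. The labels do not say whether replicate numbers pair samples. Deviations of same-numbered samples of a set correlated with a median of 0.016 (-0.52 to 0.49), and 7 of 24 pairs were over 0.1. These values show no consistent correlation and cannot decide whether samples were paired. No 2 replicates held identical values: the largest probe set difference was at least 0.67.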

Other observations

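Beyond glycolysis itself, pyruvate has several fates, and 16 genes of these were measured: 7 were lower, 3 higher and 6 not called in the limma fit over all sets, in which 27.1% of all genes were lower and 41.6% higher. The pyruvate dehydrogenase complex, which feeds pyruvate into the citric acid cycle, was lower in its subunits PDHX (-0.58, SE 0.049), DLAT (-0.48, SE 0.037), PDHB (-0.39, SE 0.035) and PDHA1 (-0.28, SE 0.027), although a second PDHA1 probe set, at -0.055 (limma adjusted p = 0.338), did not pass. DLD, a further subunit of that complex, changed by -0.15 (SE 0.048, limma adjusted p = 0.00737). It was called lower in 2 of 8 sets and changed by 0.17 in set F. The pyruvate carrier subunit MPC1 fell by 0.34 (SE 0.050), while its partner MPC2 was at 0.0073 (limma adjusted p = 0.839). Malic enzyme ME1 fell by 0.77 (SE 0.064) by its brightest probe set. Another ME1 probe set changed by -0.97, and a further one, at 0.022 (limma adjusted p = 0.617), did not pass. BSG, the chaperone of lactate transporters, rose by 1.24 (SE 0.061; limma adjusted p = 2.19e-23) in 8 of 8 sets. PDHA1, PDHB, DLAT, DLD, MPC1 and MPC2 lie outside the rule for named genes and were chosen after their values were seen.

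Of 7 genes of gluconeogenesis, which runs the pathway backwards, 2 were lower and 3 higher, shares close to those over all genes (27.1% and 41.6%). The mitochondrial carboxykinase PCK2 fell by 1.10 (SE 0.040; limma adjusted p = 1.44e-28) and the phosphatase subunit G6PC3 by 0.55 (SE 0.032; limma adjusted p = 1.53e-20). The cytosolic carboxykinase PCK1, a dim probe set, rose by 0.49 (SE 0.064; limma adjusted p = 5.22e-09). Its change ran from 0.21 in set D to 1.43 in set G and differed between sets (limma F test adjusted p = 2.02e-06).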
